A study of Homo sapiens with 14 samples.

Results

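The RAC1 and PAK pathway is described here by 40 genes chosen by name for their function: RAC-type GTPases, their exchange factors, the PAK kinases and the proteins that carry the signal to actin. Rows of the deposited interval lists were kept where the gene symbol was one of these 40, and 38 of the 40 had at least 1 row among the 26333 symbols of the 4 separate lists. PREX1 and CYFIP1 had none. Together the genes held 8 activator STAT5 intervals of 14047, 2 inhibitor BCL6 intervals of 1652, 58 control STAT5 intervals of 68320 and 55 control BCL6 intervals of 68393.

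RAC1 is a small GTPase that works as a switch: exchange factors such as TIAM1, VAV2 or the DOCK1-ELMO1 pair load it with GTP, and ARHGDIA holds the inactive form in the cytosol. Active RAC1 binds PAK kinases, which act through LIM kinases on the actin-severing protein cofilin, and the WAVE complex, which starts branched actin growth at the cell edge. ARHGEF6 and ARHGEF7, known as the PIX proteins, and GIT1 and GIT2 form a scaffold that recruits PAK to adhesions. In epithelial tumour cells the pathway is known for its part in migration and adhesion. STAT5, which mostly turns genes on, and BCL6, which represses them, bind closely related DNA motifs.

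The study immunoprecipitated chromatin from DLD-1 cells, an established line from a colorectal adenocarcinoma, with the anti-STAT5 antibody C-17 or the anti-BCL6 antibody N-3, and sequenced the DNA (ChIP-seq). Activator cells carried the plasmid pEGFP-C1199Tiam1, which codes for a piece of TIAM1, and received vehicle for 16 h, a state labelled RAC1/PAK1 activation. Inhibitor cells carried the same plasmid and received 20 microM EHT 1864, a RAC inhibitor, for 16 h, and control cells carried an empty vector. All were taken 20 h after transient transfection. The activator STAT5 group has 2 libraries, inhibitor BCL6 3, control STAT5 2 and control BCL6 2; the 5 remaining libraries of the series (activator BCL6 and inhibitor STAT5) were not analysed here. The labels do not say that libraries of a group came from separate cultures, so their spread may be technical, and the share of cells that took up the plasmid is not known. The lists hold no expression values, so the cell line could not be set against its marker genes.

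Each list gives intervals near an Ensembl gene start (GRCh37) and, per library, a whole-number value that was read as a count of reads. The lower coordinate of an interval lies in a window from 3000 bp upstream to 1000 bp downstream of the start. Its other end can reach past that window. A value is 0 or at least 2. Control intervals entered their list with a nonzero value in either library, whereas every library of a treated interval is at 2 or above and the interval shares no base with any control peak of its own antibody. Numbers of genes in treated and control lists therefore do not measure gain or loss of binding. Library depth is unknown, and precision at one gene is low: 46 of the 64 nonzero control STAT5 values at these genes (71.9%) and 46 of the 61 control BCL6 values (75.4%) were the lowest possible, 2. Agreement between replicate libraries was also low. Only 6 of the 58 control STAT5 intervals (10.3%) and 6 of the 55 control BCL6 intervals (10.9%) had a value in both libraries, against 9.34% and 9.19% of all intervals in those lists.

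STAT5 intervals in activator cells lay at 7 genes, which belong to the PAK scaffold (ARHGEF6, ARHGEF7 and GIT2), the LIM kinases (LIMK2), the WAVE complex (WASF1 and CYFIP2) and the IQGAP scaffolds (IQGAP1). BCL6 intervals in inhibitor cells lay at 2 genes, the GTPase RHOG and GIT2. RHOG was also the 1 gene of the 40 (2.5%) in the shared list of inhibitor BCL6 on control STAT5, which held 0.863% of protein-coding genes; WASF1 and LIMK2 (5.0%) were in that of activator STAT5 on control BCL6, which held 7.43%. Apart from the PIX proteins, no exchange factor had an activator STAT5 interval, nor did any GTPase or PAK kinase, and no exchange factor or PAK kinase had an inhibitor BCL6 interval. RAC1 itself, TIAM1 and PAK1 were thus in neither treated list. The 7 of 40 genes in the activator STAT5 list (17.5%) compare with 26.1% of 20056 protein-coding genes, and the 2 of 40 in the inhibitor BCL6 list (5.0%) with 3.3%. GIT2 alone was in both treated lists, as were 1.27% of protein-coding genes. Control STAT5 intervals lay at 32 of the 40 genes (80.0%), against 74.9% of protein-coding genes, and control BCL6 intervals at 31 of 40 (77.5%), against 73.9%. These shares were not tested, because the genes were chosen with results of the data known.

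The treated counts rest on low values. Where every library had to reach a value of 3, ARHGEF7 was the 1 gene left in the activator STAT5 list (2.5%, against 5.25% of protein-coding genes), and GIT2 the 1 gene left in the inhibitor BCL6 list (2.5%, against 0.15%). The value rule of the treated lists, at least 2 in every library, was also applied to control cells. With it 6 genes stayed in the control STAT5 list (15.0%, against 13.8%) and 5 in the control BCL6 list (12.5%, against 12.4%). A further condition of treated intervals, no base shared with a control peak of their own antibody, was not applied. Widths differ too: no control interval was narrower than 250 bp, while treated ones went down to 1 bp. The 6 were RAC3, DOCK2, ELMO1, GIT2, WASF1 and WASF3, and the 5 were PREX2, PAK7, ARHGEF7, LIMK2 and ABI2. No gene was in both sets (0% of the 40, against 2.59% of protein-coding genes). GIT2 and WASF1 of the 6 were also in the activator STAT5 list, as were ARHGEF7 and LIMK2 of the 5; each pair is 5.0% of the 40, against 4.59% and 4.34% of protein-coding genes.

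**Figure D1:**
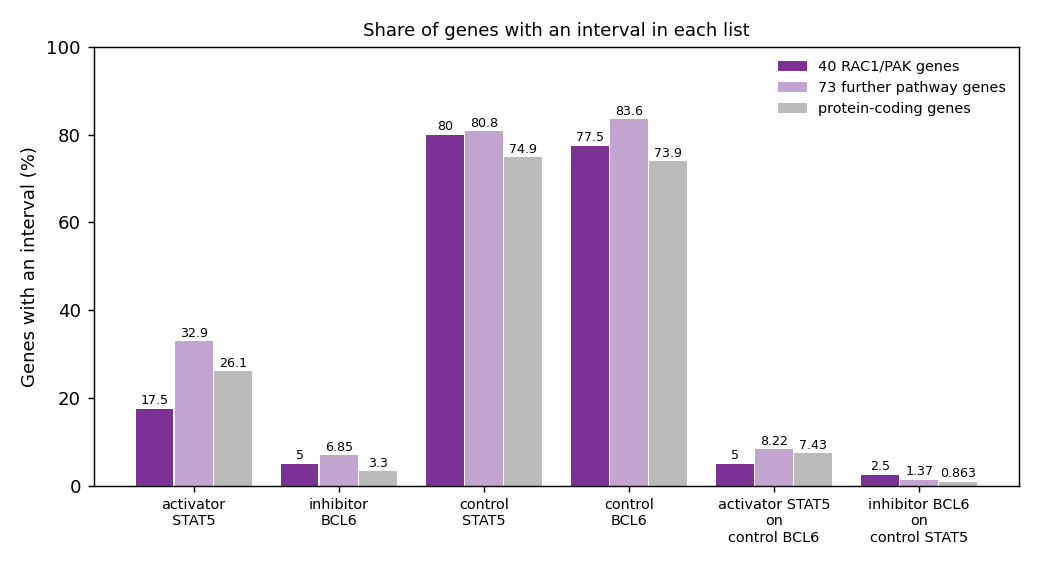
Share of genes (vertical axis, %) with at least 1 interval in each of the 4 separate lists and the 2 shared lists (horizontal axis), for the 40 RAC1/PAK genes, 73 further pathway genes and all protein-coding genes. The 40 genes are at 17.5% in the activator STAT5 list, where protein-coding genes are at 26.1%, and within 6 percentage points of them in every other list.

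**Figure D2:**
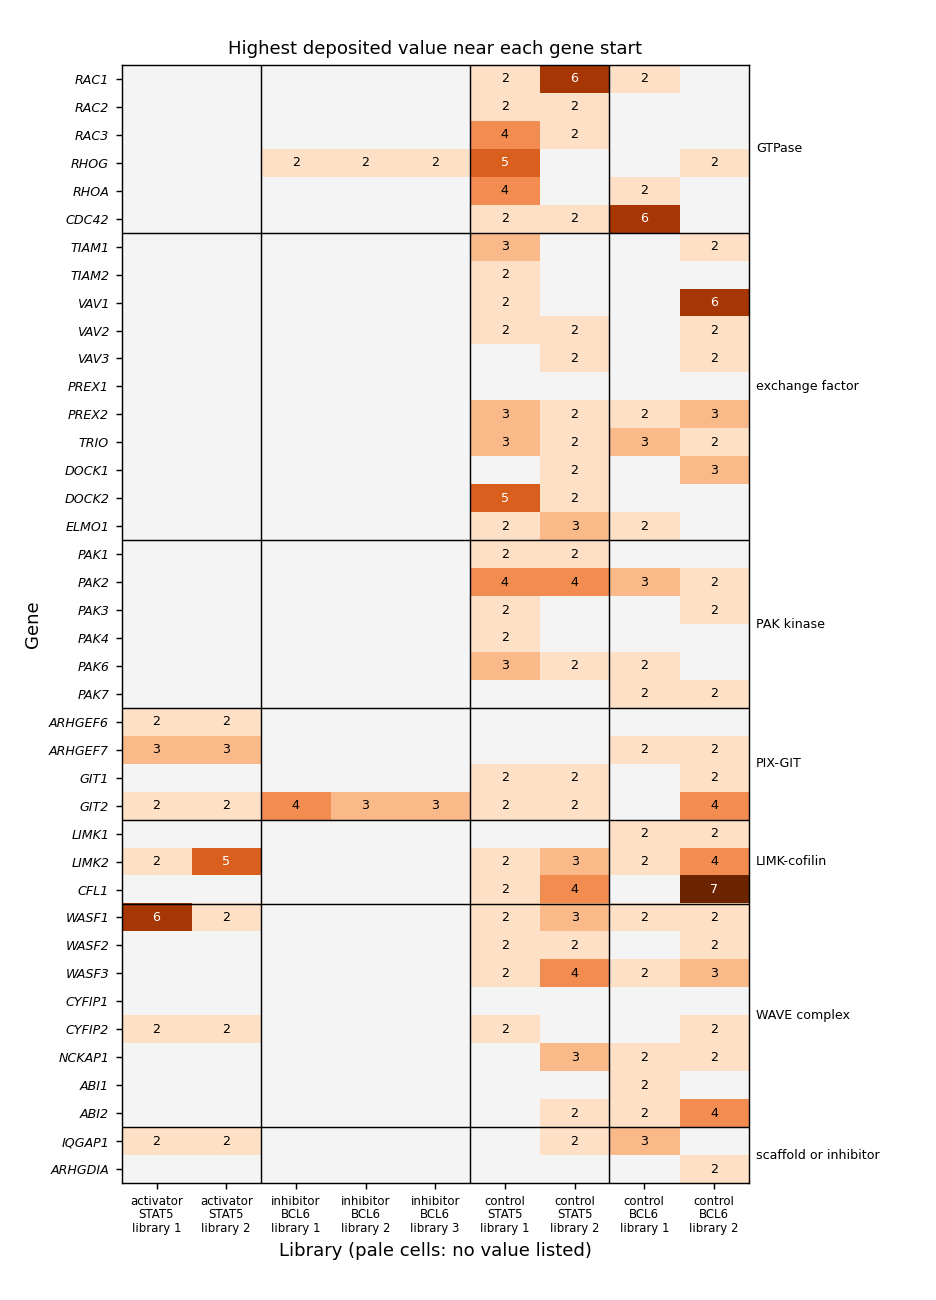
Highest deposited value near the start of each of the 40 genes (rows, grouped by role) in each of the 9 libraries (columns); pale cells have no value listed. Treated values appear at 8 genes, mostly in the PIX-GIT and WAVE rows, and the highest single value is 7, at CFL1 in control BCL6 library 2.

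Intervals crossed the start of 3 of the 40 genes, WASF1 and PAK6 in the control STAT5 list and GIT2 in the control BCL6 list. Those were 2 of 58 control STAT5 intervals (3.45%, against 7.34% of the whole list) and 1 of 55 control BCL6 intervals (1.82%, against 7.2%), and none of the 8 activator STAT5 intervals did so (0%, against 3.36%). The sequence of an interval could not be read, since no genome of the files' build was used, and the promoters below are RefSeq windows of GRCh38.p14, from 250 bases before to 50 after a gene's RefSeq start. That start can differ from the Ensembl start of the lists, so intervals are not placed on these sequences. Measured from a gene's start to its far end, each in its own build, the lists and RefSeq differed by more than 1000 bp at 14 of the 32 genes with both. The difference was 333 bp at WASF1, 22 bp at GIT2, 62 bp at ARHGEF7 and 74 bp at ABI1, but 22434 bp at PAK6 and 461663 bp at ELMO1. The RefSeq windows of PAK6 and ELMO1 thus belong to other starts than those in the lists and are not printed. Of the 40 genes 34 were matched; RAC1, RAC2, RAC3, RHOG, PREX2 and WASF2 were not. The windows were searched on both strands for TTCNNNGAA, the STAT motif, and for TTCCTNGAA, a BCL6-like motif whose every match is also a match to the STAT motif. The STAT motif was in 3 of the 34 windows (8.82%), those of ELMO1, ARHGEF7 and ABI1, against 6.97% of 15843 protein-coding promoters. The BCL6-like motif was in 2 of 34 (5.88%), ELMO1 and ARHGEF7, against 1.29%. The sequences of WASF1 and GIT2 are shown because a control interval crosses their start in the lists, and hold no match. At WASF1 the difference of 333 bp is more than the 250 bases that the window reaches upstream. The list start and its control interval may thus lie outside the printed WASF1 sequence, which says nothing about that interval. The sequence of ARHGEF7, a gene with an activator STAT5 interval, holds a match, shown in capitals. That interval lies -2992 to -2685 bp from the list start, far from the match. The windows of the other genes with an activator STAT5 interval (ARHGEF6, GIT2, LIMK2, WASF1, CYFIP2 and IQGAP1) held no match. Measured from the list start, none of their activator STAT5 intervals touched the stretch from 250 bp before to 50 bp after it. At ARHGEF6 the starts also differed by 1158 bp. The bases of those intervals were not read, so the lack of a match says nothing about them. Matches start at -87 bases from the RefSeq start in ARHGEF7 and, in windows not printed here, at -182 in ABI1 and at -166 and -115 in ELMO1.
WASF1: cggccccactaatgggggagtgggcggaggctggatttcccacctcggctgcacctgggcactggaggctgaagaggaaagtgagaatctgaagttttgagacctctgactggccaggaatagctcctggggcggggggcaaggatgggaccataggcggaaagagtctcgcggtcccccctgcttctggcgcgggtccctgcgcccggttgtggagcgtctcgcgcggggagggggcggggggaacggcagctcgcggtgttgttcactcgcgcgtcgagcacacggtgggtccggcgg
GIT2: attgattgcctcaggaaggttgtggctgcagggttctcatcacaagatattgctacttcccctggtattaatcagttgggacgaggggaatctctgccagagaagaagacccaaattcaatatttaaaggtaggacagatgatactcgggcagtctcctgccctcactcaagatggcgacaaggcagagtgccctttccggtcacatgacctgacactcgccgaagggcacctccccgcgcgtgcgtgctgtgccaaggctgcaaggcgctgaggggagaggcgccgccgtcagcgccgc
ARHGEF7: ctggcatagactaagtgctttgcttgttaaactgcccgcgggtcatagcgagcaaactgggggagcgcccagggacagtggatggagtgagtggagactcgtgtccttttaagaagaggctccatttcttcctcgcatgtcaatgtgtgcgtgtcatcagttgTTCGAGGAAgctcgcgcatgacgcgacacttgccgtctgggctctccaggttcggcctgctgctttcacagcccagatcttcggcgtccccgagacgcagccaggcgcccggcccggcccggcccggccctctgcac

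At GIT2, an adaptor that binds the PIX proteins, STAT5 in activator cells and BCL6 in inhibitor cells were listed beside each other but not on the same bases. The activator STAT5 interval (chromosome 12, 110435938 to 110436022, 85 bp, -1828 to -1744 bp from the gene start) was at 2 and 2 in its libraries. The inhibitor BCL6 interval (110436148 to 110436169, 22 bp, -1975 to -1954 bp) had values of 4, 3 and 3, and 125 bp separated it from the activator STAT5 interval. Among all inhibitor BCL6 intervals 4.48% shared a base with an activator STAT5 interval. The nearest control STAT5 peak (110436520 to 110436809, values of 2 and 2) was 350 bp from the inhibitor BCL6 interval and 497 bp from the activator STAT5 interval. The control BCL6 peak across the GIT2 start (110434172 to 110434599) had values of 0 and 4, so 1 library carried it. Both treated intervals were also listed for ANKRD13A, a divergent neighbour, whose start is closer to them: their listed distances were -1298 (activator STAT5) and -1088 bp (inhibitor BCL6). GIT1, the close relative of GIT2, had 2 control STAT5 intervals and 1 control BCL6 interval and no treated one. A control STAT5 interval of GIT1 was also listed for ANKRD13B, at 761 bp.

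The PIX exchange factors, which load RAC1 and CDC42 and bind PAK directly, had 1 activator STAT5 interval each. ARHGEF7 had values of 3 and 3 at chromosome 13, 111763915 to 111764222 (308 bp), its outer end -2992 bp from the start and so at the very edge of the window. It stood 646 bp from the nearest control BCL6 peak (111764869 to 111765392, values of 2 and 2) and 11207 bp from the nearest control STAT5 peak. ARHGEF6 had values of 2 and 2 at chromosome X, 135865590 to 135865762 (173 bp, -1515 to -1343 bp). It was the only gene of the 40 whose listed intervals were all from treated cells; the nearest control STAT5 and control BCL6 peaks lay 3707 and 5162 bp away. With ARHGEF7 these were the activator STAT5 intervals of the 40 genes that lay farthest from any control STAT5 peak.

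WASF1, the WAVE1 protein that turns on the ARP2/3 complex, had more activator STAT5 intervals than any other of the 40 genes, 1 on either side of its start. The upstream interval (chromosome 6, 110502154 to 110502432, 279 bp, -1225 to -947 bp) had values of 6 and 2, the highest activator STAT5 value at these genes, with library 1 well above library 2. It overlapped no control peak and lay 686 bp from control STAT5 and 272 bp from control BCL6. The interval inside the gene (110500894 to 110501106, 213 bp, 101 to 313 bp past the start) had values of 2 and 2. It ended at the base before a control STAT5 peak that covers the WASF1 start (110501107 to 110501396, values of 0 and 2). It also shared 19 bp with a control BCL6 peak (110500648 to 110500912, values of 2 and 0), which put it in the shared list. Both activator STAT5 intervals were listed for CDC40 too, the divergent neighbour. The interval upstream of WASF1 was listed at 809 bp past the CDC40 start, and so nearer to it than to the WASF1 start. The interval inside WASF1 was listed at -451 bp. The control STAT5 peak over the WASF1 start, 290 bp wide, was listed for CDC40 at -238 bp. That peak thus crosses the CDC40 start as well.

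CYFIP2, a WAVE complex subunit that binds RAC, had an activator STAT5 interval of 40 bp with values of 2 and 2 (chromosome 5, 156692568 to 156692607, -524 to -485 bp). It began at the base after a control STAT5 peak (156692260 to 156692567, values of 2 and 0), and no control BCL6 peak was closer than 1653 bp. The 6 other WAVE complex genes, WASF2, WASF3, CYFIP1, NCKAP1, ABI1 and ABI2, had no treated interval. Of these 6, 5 had control BCL6 intervals, CYFIP1 being the exception, beside 73.9% of protein-coding genes in that list.

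LIMK2, a kinase that inactivates cofilin by phosphorylation, had the narrowest activator STAT5 interval of the 8, with 15 bp (chromosome 22, 31607512 to 31607526, -714 to -700 bp). Its values were 2 and 5. All 15 bp lay inside a control BCL6 peak (31607271 to 31607547, values of 0 and 2), and the next base began a control STAT5 peak (31607527 to 31607853, values of 2 and 0). The LIMK2 start had 3 control peaks of each antibody, and the strongest was a control BCL6 peak with values of 2 and 4 (31606223 to 31606942). LIMK1 had 3 control BCL6 intervals and no other. IQGAP1, a scaffold that binds active RAC1 and CDC42, had an activator STAT5 interval with values of 2 and 2 (chromosome 15, 90929467 to 90929651, -1984 to -1800 bp), 25 bp from a control STAT5 peak (90929138 to 90929441, values of 0 and 2).

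RHOG, a RAC-related GTPase that acts upstream of RAC1 through ELMO and DOCK1, had the only inhibitor BCL6 interval of the 40 genes that lay on a control STAT5 peak. The interval (chromosome 11, 3864398 to 3864506, 109 bp, -2322 to -2214 bp) had values of 2, 2 and 2, the lowest possible in all 3 libraries. It lay wholly inside a control STAT5 peak (3864274 to 3864636) with values of 5 and 0, so that peak rests on control STAT5 library 1. The nearest control BCL6 peak (3861652 to 3861904, values of 0 and 2) was 2493 bp away, inside the gene.

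**Figure D3:**
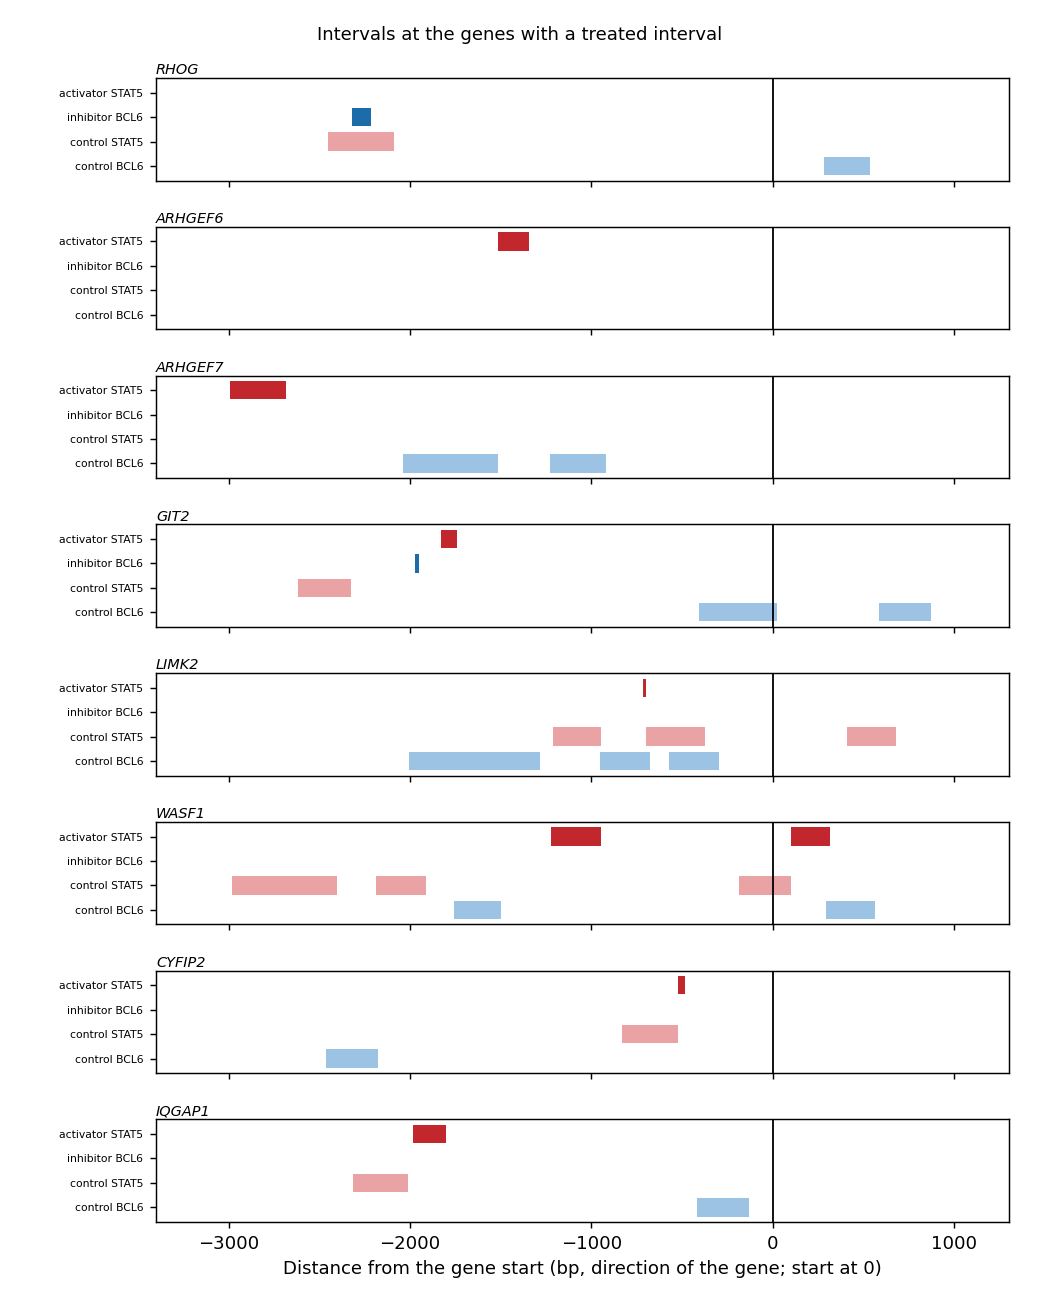
Intervals of the 4 separate lists at the 8 genes with a treated interval, by distance from the gene start (horizontal axis, bp, in the direction of the gene); each bar is 1 interval, widened to 12 bp where narrower. Activator STAT5 bars end where a control STAT5 bar begins or begin where 1 ends at LIMK2, WASF1 and CYFIP2, and the inhibitor BCL6 bar of RHOG lies inside a control STAT5 bar.

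Over the 8 activator STAT5 intervals the median width was 179 bp, against 142 bp over all 14047, and the median listed distance was -1145 bp, against -1019 bp. Values of 2 in both libraries were found at 5 of the 8 (62.5%), against 35.3% of all activator STAT5 intervals. Of the 8, 2 overlapped a control BCL6 peak (25.0%, against 25.6%), those at WASF1 and LIMK2, and both overlaps were on peaks with a value in 1 control library alone. Of the same 8, 3 (WASF1, LIMK2 and CYFIP2) lay directly beside a control STAT5 peak with no base between them (37.5%, against 18.9%), and IQGAP1 lay 25 bp off. Of these 4, 3 had values of 2 and 2. Neither of the 2 inhibitor BCL6 intervals lay beside a control BCL6 peak, where 14.3% of all inhibitor BCL6 intervals did, and 1 of 2 overlapped a control STAT5 peak, against 23.7%.

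In control cells all 6 GTPases had a STAT5 interval and 4 of 6 a BCL6 interval, beside 74.9% and 73.9% of protein-coding genes. Differences between the roles were not tested. RAC1 had 3 control STAT5 intervals and, with WASF3, the highest summed control STAT5 value of the genes without a treated interval, 10. The RAC1 interval at chromosome 7, 6411227 to 6411782 (-2900 to -2345 bp) had values of 0 and 6, and the other RAC1 intervals had 0 and 2, and 2 and 0. Its control BCL6 interval had 2 and 0. Among the GTPases RAC3 (chromosome 17, 79988011 to 79988552, values of 4 and 2) alone had control STAT5 values in both libraries at 1 interval. RAC2, the blood-cell relative, had 2 control STAT5 intervals, and neither RAC2 nor RAC3 was in the control BCL6 list. CDC42, which also activates PAK, had its highest value in control BCL6 (6 and 0 at chromosome 1, 22380070 to 22380446). RHOA, which acts mainly on contraction, had 4 and 0 in control STAT5 and 2 and 0 in control BCL6. The control STAT5 interval of RHOA (335 to 653 bp past its start) was also listed for TCTA, at 138 bp.

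Among the 11 exchange factors and partners other than the PIX proteins, 10 had a control STAT5 interval and 8 a control BCL6 interval. Those lists held 74.9% and 73.9% of protein-coding genes. DOCK2, a RAC exchange factor of blood cells, had a summed control STAT5 value of 9, next after RAC1 and WASF3. Its intervals had values of 2 and 2 (chromosome 5, 169062999 to 169063351) and 5 and 0 (169064812 to 169065403), and it had no control BCL6 interval. VAV1, another exchange factor known mainly from blood cells, PREX2 and TRIO each had a summed control BCL6 value of 9. All of the VAV1 sum came from control BCL6 library 2, at intervals of 0 and 3 and of 0 and 6. TRIO had 4 control BCL6 intervals, the most of any of the 40 genes, with 3 of them carried by library 1. TIAM1, whose fragment the plasmid codes for, had 1 control STAT5 interval (3 and 0 at chromosome 21, 32934158 to 32934541) and 1 control BCL6 interval (0 and 2 at 32933346 to 32933659). TIAM2 had a control STAT5 interval with values of 2 and 0. VAV3, a further VAV exchange factor, had 1 interval in each control list, both carried by library 2 (0 and 2 in control STAT5, 0 and 2 in control BCL6). Its control STAT5 interval was also listed for VAV3-AS1, at 65 bp.

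Of the 6 PAK kinases, PAK1, PAK2, PAK3, PAK4 and PAK6 had control STAT5 intervals, and PAK2, PAK3, PAK6 and PAK7 control BCL6 intervals. Of protein-coding genes 74.9% and 73.9% were in those lists. PAK1, the kinase named in the series title, had control STAT5 intervals with values of 2 and 0 (chromosome 11, 77185315 to 77185588) and 0 and 2 (77185812 to 77186063). The first of these was also listed for a gene without a symbol, at 898 bp. PAK2, the widely expressed family member, had the highest values, 4 and 0 and 0 and 4 in control STAT5 and at most 3 in control BCL6. A control STAT5 interval covered the PAK6 start (chromosome 15, 40509431 to 40509749, values of 2 and 0). PAK7, a member known mainly from brain and now called PAK5, had a control BCL6 interval with values of 2 and 2 (chromosome 20, 9821477 to 9821894).

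CFL1, the gene of cofilin, had the highest summed control BCL6 value, 13, and every one of its 3 control BCL6 intervals had a value of 0 in library 1. The widest of these (chromosome 11, 65627574 to 65628321, 748 bp) had 0 and 7, the highest value at any of the 40 genes. These intervals were also listed for the DNA repair gene MUS81, a divergent neighbour. Their lower coordinates lay -1415, -999 and -299 bp from its start. The widest interval, the last of these, thus crosses the MUS81 start, while it lies -2517 to -1770 bp from the CFL1 start. ABI2, a WAVE complex subunit, followed with a sum of 12 over 3 control BCL6 intervals, of which 2 had values of 2 and 2 (chromosome 2, 204193067 to 204193592 and 204193638 to 204194232). WASF3 had 3 control STAT5 intervals, with values of 2 and 2, 0 and 2, and 0 and 4. ARHGDIA, the inhibitor that holds RAC GTPases in the cytosol, and ABI1 were in the control BCL6 list and not in the control STAT5 list.

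**Figure D4:**
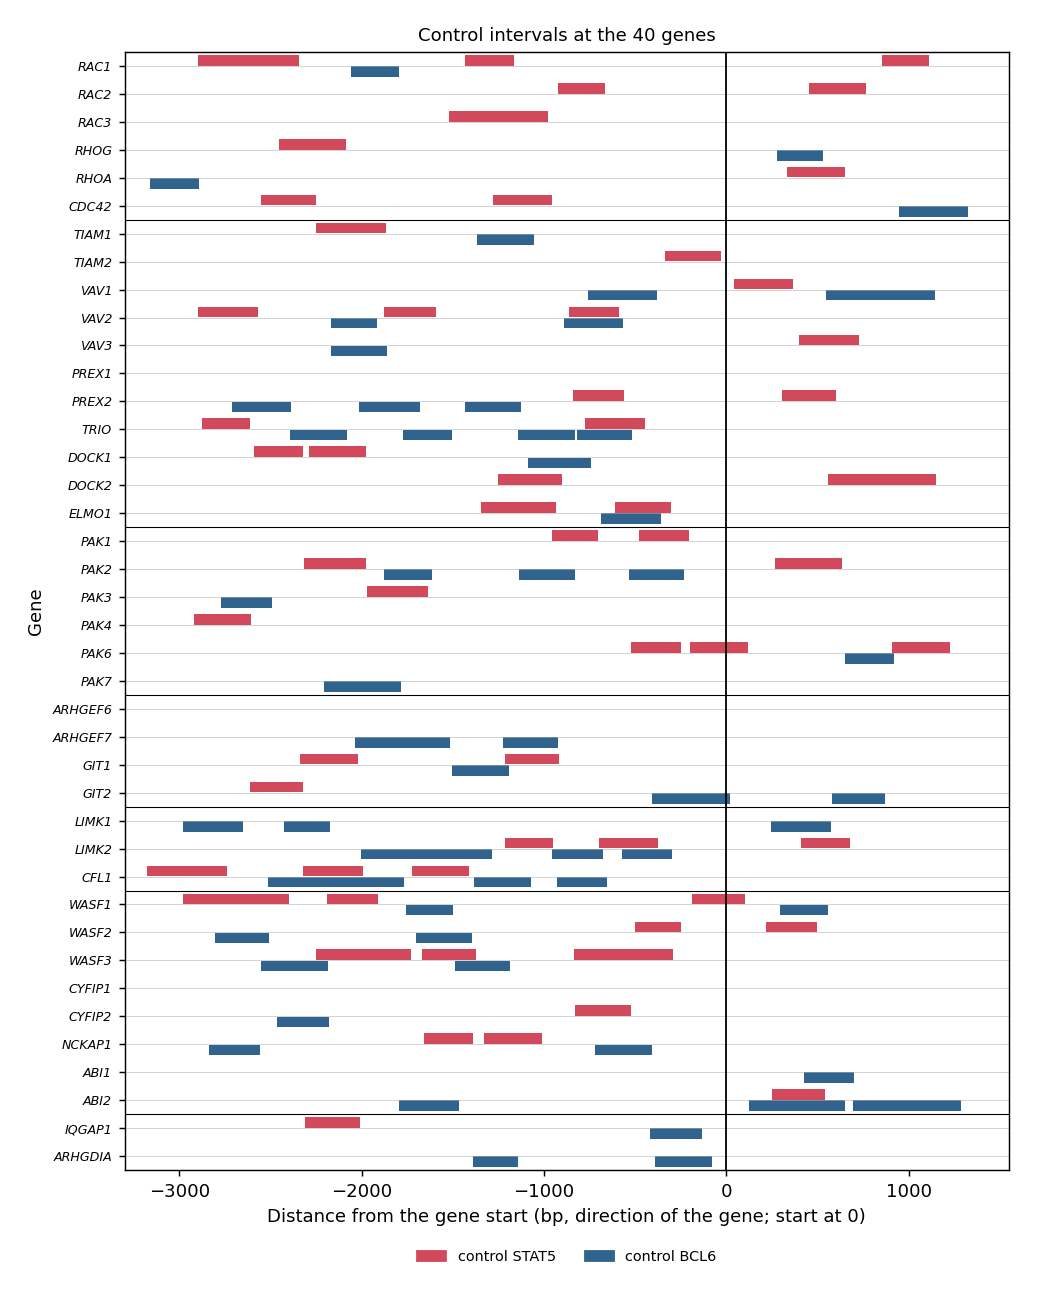
Control STAT5 and control BCL6 intervals at the 40 genes (rows, in the order of the heat map of values) by distance from the gene start (horizontal axis, bp, in the direction of the gene); each bar is 1 interval. Bars lie mostly left of the start, and the 2 colours share bases at 11 places, among them VAV2, ELMO1, TRIO, LIMK2 and WASF3.

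At the 40 genes, 26 had control intervals of both antibodies (65.0%, against 63.6% of protein-coding genes), 6 had control STAT5 intervals alone (15.0%, against 11.3%), 5 control BCL6 intervals alone (12.5%, against 10.3%), and 3 (7.5%, against 14.8%) had neither. Sharing a gene mostly did not mean sharing bases. Of the 58 control STAT5 intervals 11 overlapped a control BCL6 peak (19.0%), against 30.2% of all control STAT5 intervals; the difference was not tested. The 11 overlaps lay at ABI2, TRIO, ELMO1, VAV2, CFL1, PAK6, GIT1 and, with 2 each, WASF3 and LIMK2. At VAV2 the whole control STAT5 interval (chromosome 9, 136858317 to 136858587, values of 0 and 2) lay in the control BCL6 peak (136858293 to 136858619, values of 0 and 2). At ELMO1 the overlap was 253 bp, with values of 0 and 3 in control STAT5 and 2 and 0 in control BCL6. The overlaps at LIMK2, PAK6 and GIT1 included short ones of 7, 11 and 24 bp. At none of the 11 did both antibodies have values in both of their libraries. Such values are rare in the whole lists, at 9.34% of control STAT5 and 9.19% of control BCL6 intervals.

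Beyond the 40 genes, 73 further genes of the pathway (other small GTPases, DOCK and GAP proteins, ARP2/3 subunits, slingshot phosphatases and adaptors) gave 24 with an activator STAT5 interval (32.9%) and 5 with an inhibitor BCL6 interval (6.85%), beside the 26.1% and 3.3% of protein-coding genes. Control STAT5 intervals lay at 59 (80.8%, against 74.9% of protein-coding genes) and control BCL6 intervals at 61 (83.6%, against 73.9%). In the shared list of activator STAT5 on control BCL6 were 6 of the 73 (8.22%, against 7.43%), among them ACTR2, ARPC4, NCK1, SWAP70 and SSH2. ACTR2, a core subunit of the ARP2/3 complex that the WAVE proteins turn on, had 3 activator STAT5 intervals, with values of 3 and 10, 2 and 5, and 2 and 3. NCK1, an adaptor that brings PAK to receptors, had values of 2 and 6. SSH3, a cofilin phosphatase, was the 1 gene of the 73 (1.37%, against 0.863%) with an inhibitor BCL6 interval on a control STAT5 peak. Its values were 2, 2 and 2 in inhibitor BCL6 beside 0 and 4 in control STAT5. Of the 73, RHOQ, NCK1 and PARD6B were in both treated lists, each on separate intervals. Of protein-coding genes 1.27% were in both. The inhibitor BCL6 intervals at NCK1 (13 bp) and PARD6B (120 bp) had values of 2, 2 and 2. RHOQ had 2, 2 and 2 over 130 bp and 4, 2 and 4 over 1 bp. The PARD6B interval began at the base after a control BCL6 peak. ACTR2 and RHOQ lie on chromosome 2 between 30 and 75 Mb, where 58.0% of the gene starts in the lists had an activator STAT5 interval and 18.6% an inhibitor BCL6 interval, against 28.6% and 3.83% over all chromosomes; its part in their presence was not tested.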

How the data were processed

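Per the labels' protocols, DLD-1 cells were transfected, treated and used for ChIP with STAT5 or BCL6 antibodies. CASAVA 1.8.2, Bowtie 0.12.7 and GRCh37 stand in the submitters' processing notes, with no role; how peaks were called is not given in these sources. The authors deposited 6 lists of intervals with a whole-number value per library, read as a count of reads since the header names no quantity, and other columns for width and signed distance in bp. For 2 lists the condition in the name differs from that of their control columns; each list is described by its libraries, matched by condition and library number.

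Rows were kept by gene symbol, each distinct interval was counted once, and overlap meant at least 1 shared bp (Python 3.11.15, pandas 2.3.3); the overlap and gap calculation was tested on simulated data. The background was the 20056 protein-coding symbols of the reference table (GRCh38.p14, used for names only), older symbols included. The 40 genes and the lists were chosen with earlier results of these data known, so no set was tested. All 40 genes are named, treated intervals in full; of genes in control lists alone, those with the 3 highest summed values per list, with ties, are given as such, and other values were chosen after they were seen. Of the 73 further genes, those in a shared list or both treated lists are named, except 1 that is not reported here. Depth is unknown, so no interval or floor is given. Alternatives were other minimum values, distances, widths, overlaps, gaps and gene symbols, and leaving out each library.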

Additional observations from a re-analysis of the deposited data

How the results depend on the processing

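No paired analysis was possible because library numbers are unique to each library and no test was made. Accepting older symbols changed no count of genes. With the minimum raised to 3, treated intervals had to reach it in all their libraries, but control intervals in only 1. This left 1 gene with an activator STAT5 interval (of 7) and 1 with inhibitor BCL6 (of 2). It left 16 genes with control STAT5 (of 32) and 12 with control BCL6 (of 31). Those are 40% and 30% of the 40, against 35.8% and 34.2% of protein-coding genes. The rules differ, so these treated and control counts cannot be set against each other. Within 1000 bp of the gene start the numbers were 3 (7.5%, against 14.5% of protein-coding genes), 0 (0%, against 1.57%), 21 (52.5%, against 54.3%) and 18 (45%, against 51.5%). A value in both libraries left 6 genes with control STAT5 and 5 with control BCL6. A width of at least 50 bp left 5 genes with activator STAT5 and 1 with inhibitor BCL6. Leaving out a library, with at least 3 in the rest, left 2 genes (lowest and highest) with activator STAT5 and 1 (lowest and highest) with inhibitor BCL6. For control lists, with any value in the library that remained, it left 24 to 27 genes with STAT5 and 18 to 24 with BCL6; 18 was without control BCL6 library 2. Of the 2 activator STAT5 intervals on control BCL6 peaks, 1 had at least 50% of its width covered (LIMK2), 1 was at least 50 bp wide (WASF1), 0 lay on a peak with a value in both libraries, and 1 was left whichever control BCL6 library was left out. The inhibitor BCL6 interval at RHOG was lost (0 left) on control STAT5 peaks with values in both libraries; without 1 control STAT5 library 0 to 1 were left, and library 1 carried it. Of the 3 activator STAT5 intervals directly beside a control STAT5 peak, 1 to 2 were left without 1 control STAT5 library, and 4 counted with a gap of at most 50 bp. By construction the wider gap and the older symbols can only admit more intervals, and the other rules only fewer. Values of 2 limit what a single interval shows.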
